A study of Homo sapiens with 12 samples.

Results

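The core kinases of the Hippo pathway and their closest relatives were followed across 12 polyA RNA-seq libraries of 3 kidney cell lines. The 9 genes were chosen by symbol, but earlier results of these data were known by then, so the choice was not blind to them. They are LATS1 and LATS2, STK3 and STK4 (the kinases MST2 and MST1), SAV1, MOB1A and MOB1B, and STK38 and STK38L (the kinases NDR1 and NDR2). Each stands on 1 line of a table of 20979 entries, and each was among the 12276 genes with an FPKM (fragments per kilobase of transcript and per M fragments) above 1 in at least 3 libraries. CAKI-1 and A704 are lines labelled as cancer, and HK2 is an immortalised kidney line labelled as normal. Every line was transfected once with a LATS siRNA, once with each of 2 PTPN14 siRNAs (PTPN14-1 and PTPN14-2, numbered by sample title) and once with a non-targeting control, each at 25 nM. RNA was taken 48 h later. All libraries, controls included, therefore come from cells that received a lipid reagent and an siRNA. The descriptions number the PTPN14 siRNAs the other way round, and the labels do not say which LATS gene the LATS siRNA was aimed at.

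In the Hippo pathway MST kinases, held by the scaffold SAV1, phosphorylate LATS kinases and the adaptor MOB1, which binds and activates LATS. Active LATS phosphorylates the coactivators YAP1 and WWTR1 (TAZ) and keeps them out of the nucleus. NDR kinases belong to the same kinase group as LATS and also bind MOB1. LATS2 is known as a transcriptional target of YAP1, which makes it part of a negative feedback. PTPN14 is a phosphatase that binds YAP1 and has been described as an activator of LATS through the scaffold WWC1.

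The depth implied by whole-read steps in low values (58 to 109 single-exon genes a library) was 16.9 to 23.3 M reads. RNA integrity numbers were 10, except 9.6 for the A704 control. The lowest member value, LATS1 in CAKI-1 with the LATS siRNA, then stands for about 21.0 reads per kilobase of transcript. Libraries of 1 line correlated at r = 0.986 to 0.995 over the genes kept and libraries of different lines at 0.740 to 0.833, and no library stood apart from its line. PTPN14 had 4.09 to 14.86 FPKM with PTPN14-1 and 5.78 to 19.46 with PTPN14-2, against 18.51 to 51.84 with control, and was lower than control in every line. Of 9 markers of kidney epithelium, 4 passed FPKM 1 in at least 1 CAKI-1 library, 8 in A704 and 5 in HK2, with PAX8, KRT8 and KRT18 above it in every library. CDH1 reached at most 0.17 FPKM in CAKI-1 and 0.07 in HK2, and PAX2, LRP2 and CUBN were also at or under 0.17 in both lines, while EPCAM was at or under 0.51 in CAKI-1 and A704. The 4 fibroblast markers summed to 1.07 to 2.47 FPKM in CAKI-1 and 0.69 to 1.47 in A704, against 6.63 to 9.60 in HK2, where DCN alone had 5.67 to 8.20. Markers of endothelium and leucocytes summed to at most 0.59 FPKM in any library. The labels name no separate cultures behind the libraries, so p-values measure the spread between libraries across lines and siRNAs, and each line was grown in its own medium, so line and medium cannot be told apart. In bulk RNA a change in cell makeup and a change per cell cannot be told apart either.

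MOB1A was the most abundant of the 9 transcripts per length and STK38L the least in every control library. MOB1A had 42.46 FPKM in CAKI-1, 35.96 in A704 and 49.12 in HK2, which put it above 88.3, 86.8 and 90.5% of the genes kept. STK38L had 3.50, 2.23 and 3.62 FPKM in the same order. LATS1, at 4.0, 4.85 and 7.67 FPKM, and SAV1, at 5.58, 5.75 and 6.16 FPKM, lay in the lower part of the list. The coding genes lie on 8 chromosomes of GRCh38: LATS1 on 6 (149658153 to 149718256, minus strand), LATS2 on 13 (20973032 to 21061547, minus), STK3 on 8 (98371228 to 98942827, minus), STK4 on 20 (44966474 to 45079959, plus), SAV1 on 14 (50632058 to 50668331, minus), MOB1A on 2 (74152528 to 74178898, minus), MOB1B on 4 (70902326 to 71022449, plus), STK38 on 6 (36493892 to 36547470, minus) and STK38L on 12 (27243968 to 27325959, plus).

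The paralogs can be told apart by sequence. In the annotated transcripts no window of 50 bases was shared between LATS1 and LATS2, STK3 and STK4, MOB1A and MOB1B or STK38 and STK38L. SAV1 shared 4.51% of its windows with transcripts of other genes, all of them with AC093890.1, and its exons overlap those of ATL1 on the other strand over 840 bases. MOB1B shared 2.03%, mostly with its neighbour DCK on the same strand, and exons of LATS1 and STK3 overlap antisense genes over 408 and 106 bases. Whether reads were counted by strand is not given in the sources used here. If they were not, reads of SAV1, LATS1 and STK3 could not be told from those of opposite-strand partners where exons overlap. Exons of MOB1B and DCK overlap on the same strand over 199 bases, where strand would not tell their reads apart. All other members shared at most 1.25% of their windows.

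**Figure D1:**
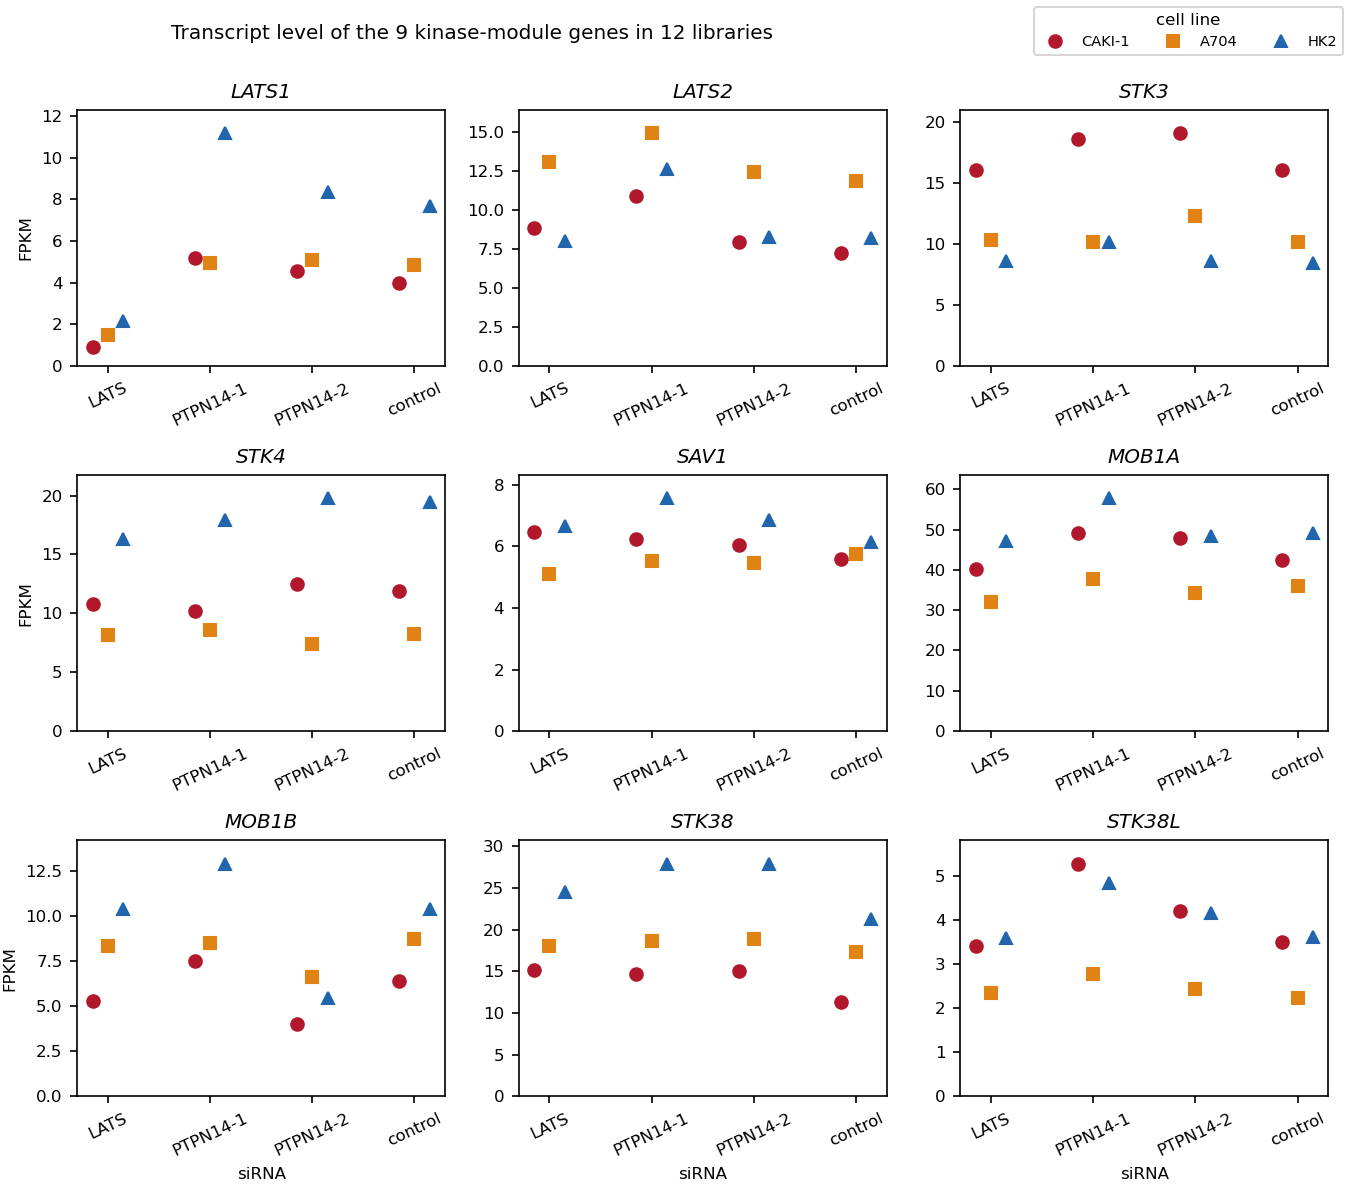
FPKM of each of the 9 genes (vertical axis, from 0) under each siRNA (horizontal axis) in CAKI-1 (circles), A704 (squares) and HK2 (triangles), 1 point per library. LATS1 is low under the LATS siRNA in all 3 lines, LATS2 and STK38L are highest under PTPN14-1 and MOB1B is lowest under PTPN14-2 in each line.

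The LATS siRNA lowered LATS1 alone among the 9 genes. LATS1 had 0.90 FPKM in CAKI-1, 1.49 in A704 and 2.14 in HK2 with the LATS siRNA, against 4.0, 4.85 and 7.67 with control siRNA. The 3 LATS siRNA values lay below all 9 other libraries, though the share of all genes that did so was not counted. The log2 change was -1.36 (SE 0.11; limma, 3 libraries a group, adjusted p = 0.000179), the smallest p of all 12276 genes. Changes are on the scale of log2(FPKM + 1), which understates low genes, and with a pseudocount of 0.1 this one was -1.82. In the same comparison 15 genes passed an adjusted p of 0.05, which is 0.122% of those tested (0.0244% higher, 0.0978% lower). Leaving out the CAKI-1 line ended the LATS1 call (-1.35, adjusted p = 0.0625).

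LATS2, the paralog, did not pass with the LATS siRNA. It had 8.82 FPKM in CAKI-1, 13.08 in A704 and 8.02 in HK2 with the LATS siRNA, against 7.21, 11.87 and 8.17 with control, a log2 change of 0.12 (95% interval -0.07 to 0.31, adjusted p = 0.618). The summed FPKM of both LATS genes stood at 86.7% of control in CAKI-1, 87.1% in A704 and 64.1% in HK2. LATS1 made up 9.26% of this sum in CAKI-1, 10.2% in A704 and 21.1% in HK2 with the LATS siRNA, against 35.7, 29 and 48.4% with control. The sum was lowest against control in HK2, where LATS2 stood at 98.2% of control; LATS2 stood at 122% in CAKI-1 and 110% in A704.

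The other 7 genes did not pass with the LATS siRNA, with log2 changes from -0.13 for STK4 to 0.22 for STK38. The upper interval bound was 0.40 for STK38, and the lower bounds were -0.36 for MOB1B, -0.33 for STK4 and -0.26 for MOB1A. MOB1A had its lowest value of the 4 siRNAs in every line under the LATS siRNA, at 40.36 FPKM in CAKI-1, 32.03 in A704 and 47.12 in HK2, which is 95.1, 89.1 and 95.9% of control. The LATS library was the lowest in all 3 lines for 2 of the 9 members, LATS1 and MOB1A, and for 4.69% of all genes kept; it was the highest for no member and for 3.89% of genes.

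PTPN14-1 raised LATS2 and STK38L. LATS2 had 10.87 FPKM in CAKI-1, 14.92 in A704 and 12.61 in HK2 with PTPN14-1, against 7.21, 11.87 and 8.17 with control. Within each line the PTPN14-1 library was the highest of the 4, at 151, 126 and 154% of control. The log2 change was 0.47 (SE 0.09; limma, 3 libraries a group, adjusted p = 0.00903). The call ended without HK2 PTPN14-1 (0.39, adjusted p = 0.0538) or the CAKI-1 control (0.43, adjusted p = 0.0592), and without the HK2 or CAKI-1 line (adjusted p = 0.134 and 0.105).

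STK38L, the NDR2 kinase, was the other member that rose. It had 5.27 FPKM in CAKI-1, 2.76 in A704 and 4.84 in HK2 with PTPN14-1, against 3.50, 2.23 and 3.62 with control. As for LATS2, the PTPN14-1 library was the highest of the 4 in each line. The log2 change was 0.35 (SE 0.08, limma adjusted p = 0.0300). This call rested on single libraries: leaving out a control gave an adjusted p of 0.127 (CAKI-1), 0.0784 (A704) or 0.114 (HK2), and it was 0.0961 without HK2 PTPN14-1 and 0.109 without CAKI-1 PTPN14-1, and dropping any line ended it (0.0699 to 0.243).

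Among the 9 members 2 were thus higher with PTPN14-1 and none lower, where 5.87% of all genes tested passed, 2.39% higher and 3.47% lower. The members' median log2 change was 0.17, against 0.0021 over all genes. LATS1 had 5.20 FPKM in CAKI-1, 4.94 in A704 and 11.17 in HK2 with PTPN14-1, against 4.0, 4.85 and 7.67 with control. Its values lay above control by very unequal amounts, with 130% of control in CAKI-1, 102% in A704 and 146% in HK2, and the log2 change of 0.27 did not pass (SE 0.11, limma adjusted p = 0.158). Without A704 PTPN14-1 it was 0.41 and passed (adjusted p = 0.0327). MOB1A had its highest value of the 4 siRNAs in every line, at 116, 105 and 118% of control in CAKI-1, A704 and HK2, with a log2 change of 0.17 (adjusted p = 0.195). The PTPN14-1 library was the highest in all 3 lines for 3 of the 9 members, LATS2, STK38L and MOB1A, and for 7.74% of all genes kept. It was the lowest for no member and for 8.14% of genes.

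The promoter windows of the genes that changed with a PTPN14 siRNA are given here, since LATS2 is known as a target of YAP1, which reaches DNA through TEAD factors, often near AP-1 sites. RefSeq windows (GRCh38.p14) from 250 bases before to 50 after the start were on hand for 7 of the 9 genes, all but STK3 and STK38. Capitals mark the TEAD core GGAATG (or CATTCC) and the AP-1 site TGANTCA, both searched on both strands; the motifs do not overlap in these windows.
LATS2 (chr13:21061537-21061836, minus strand): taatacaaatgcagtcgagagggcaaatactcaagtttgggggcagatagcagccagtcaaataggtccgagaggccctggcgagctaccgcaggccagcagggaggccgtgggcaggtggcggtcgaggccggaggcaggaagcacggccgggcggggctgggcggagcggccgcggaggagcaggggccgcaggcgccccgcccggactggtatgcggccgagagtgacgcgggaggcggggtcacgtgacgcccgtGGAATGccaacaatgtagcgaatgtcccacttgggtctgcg
STK38L (chr12:27244036-27244335, plus strand): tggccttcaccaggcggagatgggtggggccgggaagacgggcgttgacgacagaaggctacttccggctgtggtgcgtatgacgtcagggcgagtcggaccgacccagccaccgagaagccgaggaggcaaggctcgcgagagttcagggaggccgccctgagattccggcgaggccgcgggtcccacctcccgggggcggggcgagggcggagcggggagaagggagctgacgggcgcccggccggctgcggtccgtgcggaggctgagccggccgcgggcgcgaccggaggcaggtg
MOB1B (chr4:70902119-70902418, plus strand): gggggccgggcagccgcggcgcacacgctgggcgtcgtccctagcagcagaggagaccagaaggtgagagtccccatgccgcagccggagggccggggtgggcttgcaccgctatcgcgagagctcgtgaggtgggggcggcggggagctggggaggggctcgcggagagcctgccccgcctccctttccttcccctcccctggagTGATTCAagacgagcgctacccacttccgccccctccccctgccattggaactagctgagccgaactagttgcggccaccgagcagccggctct
LATS2 held the TEAD core once, starting 10 bases into the transcript, and it was the only one of the 7 with a match for it. Of 35116 promoter windows 14.0% held one. A match in 1 of 7 genes is near that share, so it is not a result about these genes. Binding at these motifs was not tested. MOB1B and 1 of the LATS1 windows held 1 AP-1 match each, against 7.71% of all windows, and STK38L held neither motif. The 3 printed windows had 67.7, 73.7 and 70.7% G and C, against a median of 58.7% over all windows.

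PTPN14-2 lowered MOB1B, which PTPN14-1 did not. MOB1B had 4.04 FPKM in CAKI-1, 6.61 in A704 and 5.47 in HK2 with PTPN14-2, against 6.38, 8.72 and 10.40 with control. The PTPN14-2 library was the lowest of the 4 in each line, at 63.3, 75.8 and 52.6% of control. The log2 change was -0.57 (SE 0.12; limma, 3 libraries a group, adjusted p = 0.0359). In all 3 lines this library was the lowest for MOB1B alone and for 6.55% of genes, and the highest for no member and 6.07%. MOB1B was the 1 member called, where 1.35% of all genes tested passed, 0.448% higher and 0.904% lower. The call was lost without 7 of the 12 libraries taken singly: leaving out a LATS library gave an adjusted p of 0.0617 (A704) or 0.0507 (HK2), leaving out a control 0.156 (CAKI-1), 0.0964 (A704) or 0.157 (HK2), and leaving out a PTPN14-2 library 0.125 (CAKI-1) or 0.139 (HK2). Without HK2 PTPN14-2 the change itself was -0.41. It also missed the threshold without any line, at 0.313 (CAKI-1), 0.0626 (A704) and 0.305 (HK2), and with no filter on low values (0.128).

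The direct contrast of the 2 PTPN14 siRNAs passed for MOB1B under more of the alternatives. It had 7.54 FPKM in CAKI-1, 8.5 in A704 and 12.92 in HK2 with PTPN14-1, against 4.04, 6.61 and 5.47 with PTPN14-2. All 3 PTPN14-1 values lay above all 3 PTPN14-2 values, though the share of all genes that did so was not counted. The log2 difference was 0.73 (SE 0.12, limma adjusted p = 0.00245), and it passed whichever single library was left out, but not without the HK2 line (0.54, adjusted p = 0.0589). Its paralog MOB1A had a difference of 0.14 (95% interval -0.02 to 0.30, adjusted p = 0.238). MOB1A so made up 92.2% of the summed MOB1 FPKM in CAKI-1, 83.8% in A704 and 89.8% in HK2 with PTPN14-2, against 86.9, 80.5 and 82.5% with control. Because MOB1A is far more abundant, both MOB1 transcripts together came to 106% of control in CAKI-1, 91.6% in A704 and 90.5% in HK2 under PTPN14-2.

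LATS2 was the other member that set the PTPN14 siRNAs apart. Its FPKM was 10.87 in CAKI-1, 14.92 in A704 and 12.61 in HK2 with PTPN14-1, against 7.94, 12.43 and 8.27 with PTPN14-2. The log2 difference was 0.40 (SE 0.09, limma adjusted p = 0.0112), lost without HK2 PTPN14-1 (0.0565) or HK2 PTPN14-2 (0.0505) and without the HK2 or CAKI-1 line (0.111 and 0.0931). Against control, LATS2 with PTPN14-2 had a log2 change of 0.07 (95% interval -0.12 to 0.26). STK38L did not differ past the threshold between the siRNAs (0.19, 95% interval 0.01 to 0.37, adjusted p = 0.15), so its rise with PTPN14-1 was not shown to be particular to that siRNA. Of the 9 members 2 were higher with PTPN14-1 than with PTPN14-2, and none lower, where 11.7% of all genes passed, 5.52% higher and 6.18% lower.

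**Figure D2:**
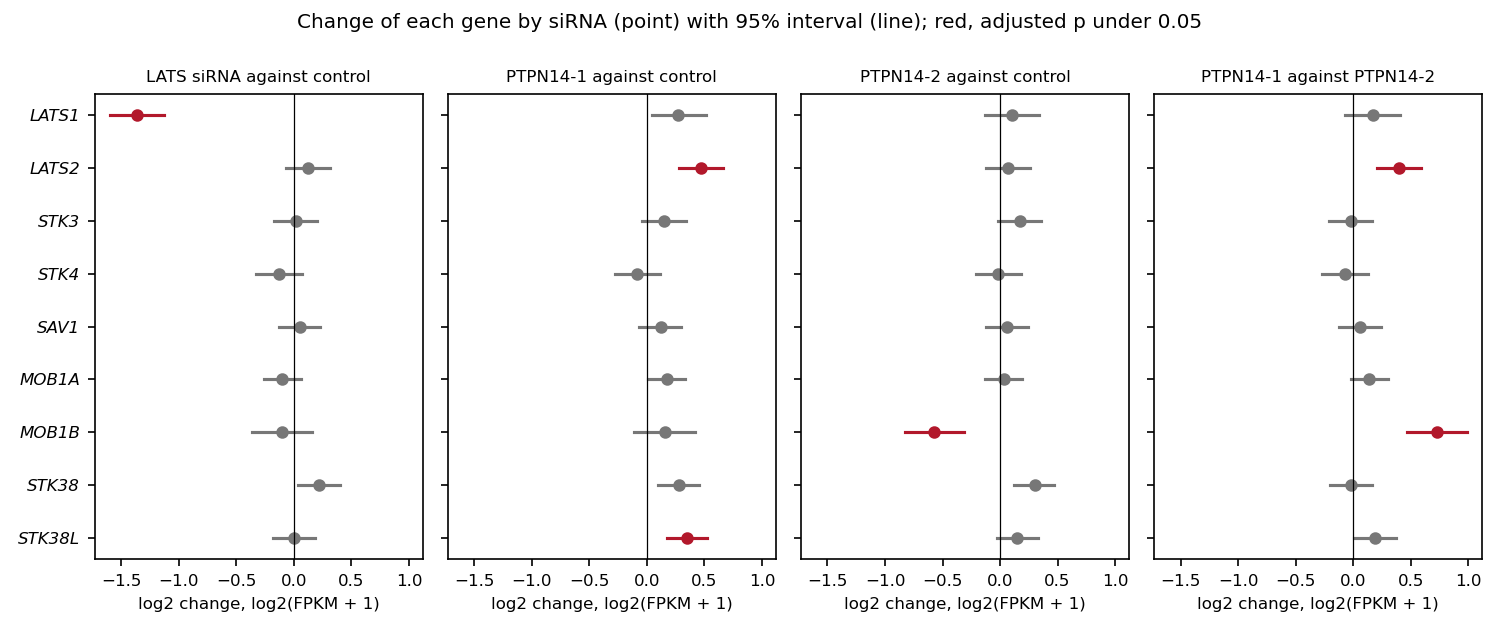
Log2 change of each gene on the log2(FPKM + 1) scale (horizontal axis, common to all panels) for LATS siRNA, PTPN14-1 and PTPN14-2 against control and for PTPN14-1 against PTPN14-2. Points are limma estimates, lines are 95% intervals and red marks an adjusted p under 0.05: LATS1 at -1.36, LATS2 at 0.47 and 0.40, STK38L at 0.35, and MOB1B at -0.57 and 0.73.

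STK38, the NDR1 kinase, was lowest under control siRNA in every line. It had 15.21, 14.68 and 15.05 FPKM in CAKI-1 with LATS siRNA, PTPN14-1 and PTPN14-2, against 11.27 with control. In HK2 the values were 24.57, 27.91 and 27.93 FPKM, against 21.29, and in A704 they were 18.07, 18.60 and 18.91, against 17.27. The log2 changes were 0.22, 0.28 and 0.30 (SE 0.08 each), and none passed (limma adjusted p = 0.354, 0.0663 and 0.107). Without the CAKI-1 LATS library the PTPN14-1 change passed (0.28, adjusted p = 0.0492). The 3 comparisons share their control libraries, so these values are not independent. The control library was the lowest in all 3 lines for 2 members, STK38 and STK3, and for 2.44% of all genes kept, and the highest for no member and 1.83%. For STK3 in CAKI-1 the margin was that of 16.02 with LATS siRNA over 16.01 with control.

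The MST kinases and their scaffold passed in no siRNA contrast. STK3 stood at 100 to 102% of control with the LATS siRNA, 100 to 120% with PTPN14-1 and 102 to 121% with PTPN14-2. STK4 stood at 84.0 to 98.5, 85.6 to 104 and 89.5 to 105% of control. SAV1 stood at 88.7 to 116, 96.0 to 123 and 95 to 111%. The intervals of their log2 changes against control all lay between -0.33 and 0.36, so larger changes of these transcripts were not found in the mean over lines.

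Whether members responded unequally across lines could not be settled. The limma F test of line and target together takes its 3 residual degrees of freedom from the PTPN14 pairs, whose siRNAs differed at MOB1B and LATS2. It called 0 of 12276 genes, with 119 at an unadjusted p under 0.05 and a lowest adjusted p of 1.00, so it says nothing on equal or unequal responses of the 9. Changes within single lines have no replicate of their own.

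Between lines most transcripts of the table differed, and so did most of the 9. Each comparison uses 4 libraries per line with siRNA as a term. Of the members 6 of 9 were called in CAKI-1 against HK2, 8 in A704 against HK2 and 7 in CAKI-1 against A704, where 81.7, 84.6 and 81.1% of all genes were called. Against HK2, CAKI-1 was higher in 1 member and lower in 5 (40.4 and 41.3% of genes), and A704 higher in 2 and lower in 6 (40.6 and 44.0%). CAKI-1 was higher than A704 in 4 and lower in 3 (41.8 and 39.3%). These counts lie near the background, so that members differ between lines is not a result about them, and what follows gives the sizes. The epithelial and fibroblast markers given above also differ by line, and their part in these differences was not tested.

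The MST kinases differed in opposite directions between each cancer line and HK2, and in the same direction between the cancer lines. STK3 averaged 17.4 ± 1.64 FPKM in CAKI-1, 10.7 ± 1.04 in A704 and 8.94 ± 0.785 in HK2 (SD, n = 4 each). STK4 averaged 11.3 ± 1.04, 8.09 ± 0.504 and 18.4 ± 1.57 FPKM. The groups of 4 libraries did not overlap for STK4. For STK3 they did not overlap between A704 and HK2 by a margin of 10.14 over 10.11 FPKM. How many of all genes kept were free of such overlap was not counted, so this is not shown to be particular to these genes. STK3 was higher in CAKI-1 than in HK2 by a log2 difference of 0.89 (SE 0.07, limma adjusted p = 1.05e-07), and STK4 was lower by -0.65 (SE 0.08, adjusted p = 3.64e-06). In A704 against HK2 the differences were 0.24 for STK3 (adjusted p = 0.00922, lost at 0.0534 without HK2 PTPN14-2) and -1.09 for STK4 (SE 0.08, adjusted p = 1.60e-08). Both genes were higher in CAKI-1 than in A704, STK3 by 0.65 (SE 0.07, limma adjusted p = 2.65e-06) and STK4 by 0.43 (SE 0.08, adjusted p = 0.000179). STK3 made up 57.4% of the summed MST FPKM in the CAKI-1 control and 55.1% in the A704 control, against 30.3% in the HK2 control.

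**Figure D3:**
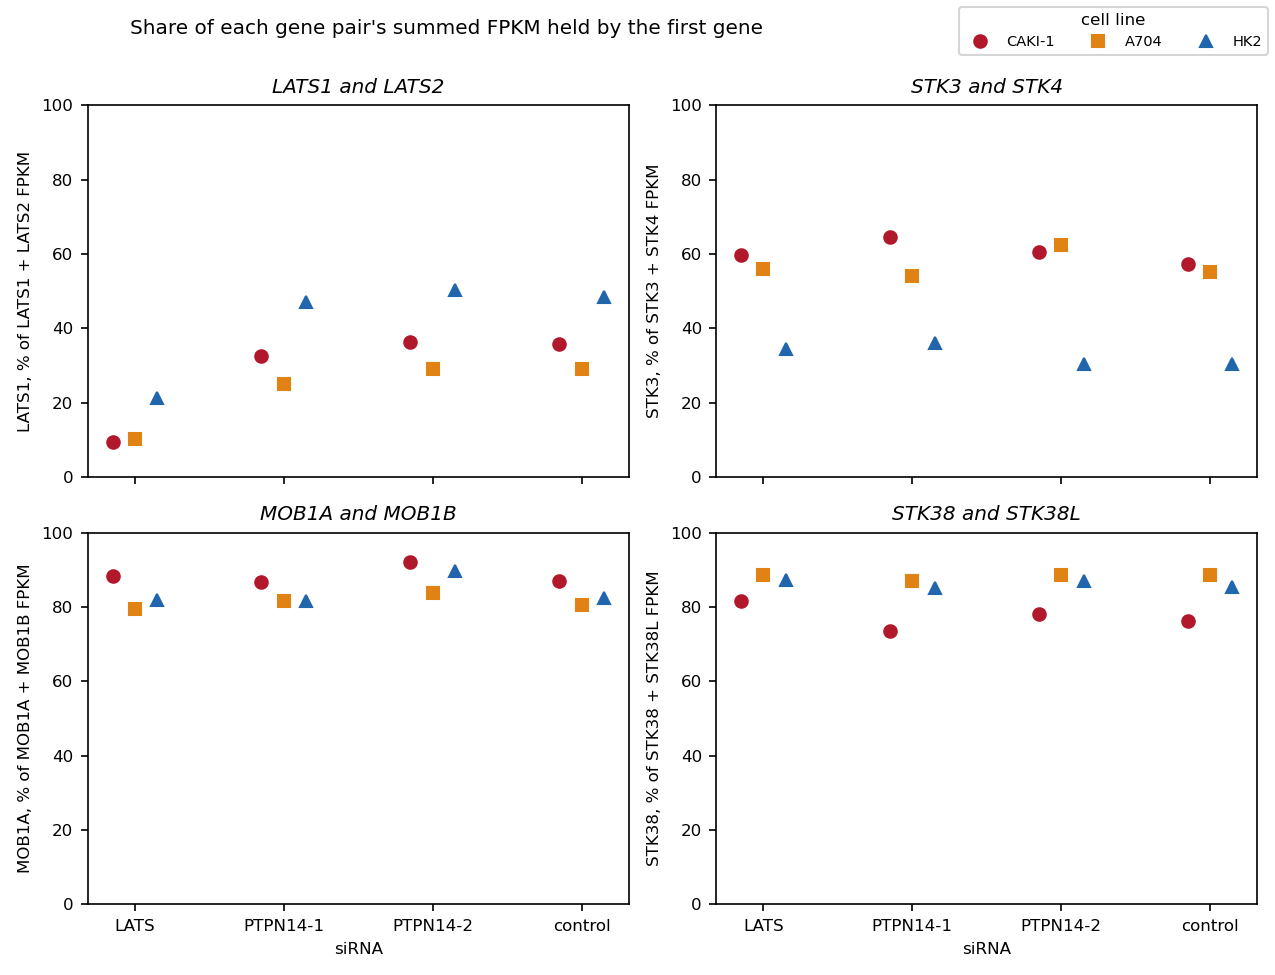
Share of each pair's summed FPKM held by its first gene (vertical axis, 0 to 100%) under each siRNA (horizontal axis) for LATS1 and LATS2, STK3 and STK4, MOB1A and MOB1B, and STK38 and STK38L, 1 point per library. STK3 holds 54.2 to 64.7% in CAKI-1 and A704 and 30.3 to 36.0% in HK2, and the LATS1 share is lowest under the LATS siRNA in each line.

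The LATS kinases also differed between lines, though LATS1 had a lower FPKM than LATS2 in every control library. LATS1 was lower in CAKI-1 and in A704 than in HK2, by log2 differences of -0.81 (SE 0.09, limma adjusted p = 2.72e-06) and -0.64 (SE 0.09, adjusted p = 2.47e-05). Between CAKI-1 and A704 it did not pass (-0.17, adjusted p = 0.110), except without A704 PTPN14-1 (-0.28, adjusted p = 0.00873). LATS2 averaged 8.71 ± 1.58 FPKM in CAKI-1, 13.1 ± 1.33 in A704 and 9.27 ± 2.23 in HK2 (SD, n = 4 each, spread over the 4 siRNAs). It was higher in A704 than in HK2 by 0.47 (SE 0.08, adjusted p = 5.12e-05) and lower in CAKI-1 than in A704 by -0.54 (SE 0.08, adjusted p = 1.60e-05), while CAKI-1 and HK2 did not differ past the threshold (-0.07, 95% interval -0.23 to 0.09). The LATS1 share of the LATS sum in control libraries was 35.7% in CAKI-1 and 29% in A704, against 48.4% in HK2.

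The NDR kinases and the MOB1 adaptors had their highest means in HK2, apart from STK38L, which CAKI-1 matched. STK38 averaged 14 ± 1.87 FPKM in CAKI-1, 18.2 ± 0.718 in A704 and 25.4 ± 3.18 in HK2, with log2 differences from HK2 of -0.81 and -0.45 (SE 0.07 each). The 3 groups of 4 libraries did not overlap, with no share of all genes at hand for comparison. STK38L averaged 4.09 ± 0.862, 2.44 ± 0.228 and 4.05 ± 0.586 FPKM; A704 was lower than HK2 by -0.55 (SE 0.07, limma adjusted p = 7.51e-06), and CAKI-1 lay at 0.0044 from HK2 (95% interval -0.15 to 0.16). MOB1A averaged 45.0 ± 4.26, 35.0 ± 2.39 and 50.6 ± 4.84 FPKM, and its difference of A704 from HK2 was -0.52 (SE 0.06). The MOB1A difference of CAKI-1 from HK2, -0.17 (adjusted p = 0.0271), was lost without the HK2 LATS (0.0678), PTPN14-1 (0.0882) or control library (0.0542) or the CAKI-1 LATS (0.0607), PTPN14-1 (0.0668) or control library (0.103).

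MOB1B and SAV1 varied less clearly by line. MOB1B averaged 5.81 ± 1.5 FPKM in CAKI-1, 8.04 ± 0.967 in A704 and 9.79 ± 3.12 in HK2, and CAKI-1 was lower than HK2 by -0.64 (SE 0.10, limma adjusted p = 7.17e-05) and than A704 by -0.43 (adjusted p = 0.00193). A704 against HK2 did not pass (-0.21, adjusted p = 0.0777), but did without A704 PTPN14-2 (-0.31, adjusted p = 0.0139) or HK2 PTPN14-2 (-0.33, adjusted p = 0.00620). SAV1 averaged 6.09 ± 0.378, 5.46 ± 0.269 and 6.81 ± 0.579 FPKM, the narrowest range of the 9. It was lower in A704 than in HK2 by -0.27 (SE 0.07, adjusted p = 0.00312). CAKI-1 did not differ past the threshold from HK2 (-0.14, adjusted p = 0.0890; 0.0421 without CAKI-1 LATS) or A704 (0.13, adjusted p = 0.105; 0.0375 without the A704 control and 0.0421 after quantile normalisation).

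**Figure D4:**
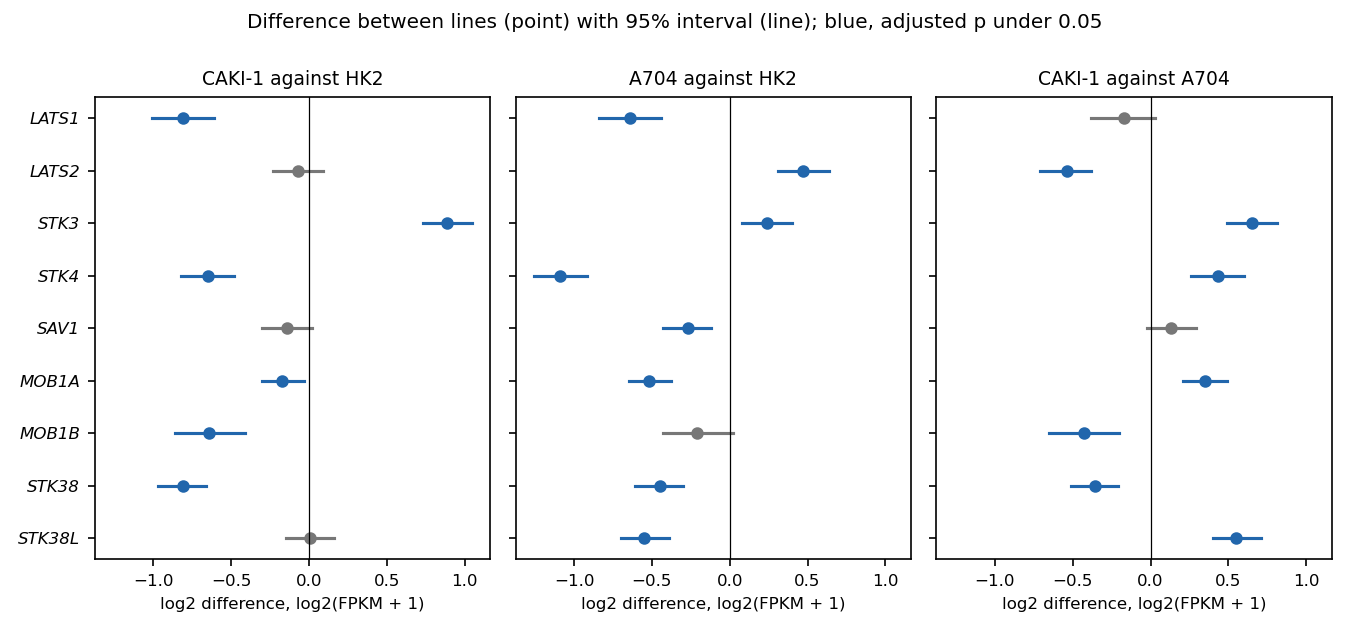
Log2 difference between lines on the log2(FPKM + 1) scale (horizontal axis, common to all panels) for CAKI-1 against HK2, A704 against HK2 and CAKI-1 against A704, 4 libraries per line. Points are limma estimates, lines are 95% intervals and blue marks an adjusted p under 0.05: STK3 is higher in CAKI-1 than in HK2 by 0.89 and STK4 lower by -0.65.

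The wider pathway was read from lists around the 9 genes. With the LATS siRNA 0 of 67 measured genes passed by limma, where 0.122% of all genes tested passed. At an unadjusted limma p under 0.05 lay 11 of the 67, and 1381 of all 12276 genes tested. With PTPN14-1 13 of the 67 passed, where 5.87% of all genes did, and with PTPN14-2 4 passed, where 1.35% did. Between these siRNAs 13 of the 67 differed, where 11.7% of all genes did. PTPN14, the target of both siRNAs, is 1 of the 67 and is counted in each of these PTPN14 totals. The total for PTPN14-1 also holds 6 YAP target genes from a list chosen with results of these libraries known. These totals are therefore not independent of the design or of the choice of lists. With PTPN14-1, 5 of 9 LATS scaffolds passed, 3 higher and 2 lower, where 2.39% of all genes were higher and 3.47% lower; 1 of those lower is PTPN14, the target of the siRNA, which says nothing about the others. Of the 5, the angiomotin AMOTL2 at 0.70 (SE 0.09, adjusted p = 0.000775), the FERM-domain protein FRMD6 at 0.66 (SE 0.16, adjusted p = 0.0333) and WWC1 at 0.36 (SE 0.09, adjusted p = 0.0364) rose, and WWC3 at -0.56 (SE 0.10, adjusted p = 0.00735) and PTPN14 itself at -1.84 fell. WWC1, the fifth by p in this list, was added after its value was seen. The scaffolds' median was 0.14, against 0.0021 over all genes. FRMD6 set the PTPN14 siRNAs apart by 1.00 (SE 0.16, adjusted p = 0.00231). Its FPKM was 33.44 in HK2, 10.95 in CAKI-1 and 9.03 in A704 with PTPN14-1, against 11.66, 5.96 and 4.89 with PTPN14-2.

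Among inhibitors and ubiquitin ligases that act on LATS, 2 of 7 measured rose with PTPN14-1 and none fell: NEDD4, a ubiquitin ligase, by 0.42 (SE 0.07, limma adjusted p = 0.00557) and AJUBA, a LIM protein that binds LATS, by 0.65 (SE 0.12, adjusted p = 0.0105). In STRIPAK, the phosphatase complex that acts on MST kinases, each PTPN14 siRNA lowered a different catalytic subunit of 13 genes: PPP2CB fell by 0.29 with PTPN14-1 (log2 scale, SE 0.07, adjusted p = 0.0385) and PPP2CA fell by 0.40 with PTPN14-2 (SE 0.08, adjusted p = 0.0260). The siRNAs differed at both, by 0.47 for PPP2CA (SE 0.08, adjusted p = 0.00281) and -0.46 for PPP2CB (SE 0.07, adjusted p = 0.00203). Of 9 MST activators and partners 1 passed, RASSF3, which fell with PTPN14-2 by 0.48 (log2 scale, SE 0.08, adjusted p = 0.0117). None of 6 MAP4K kinases, which also phosphorylate LATS, and none of 3 other MOB genes passed in any siRNA contrast, with at most 2 MAP4K genes and 1 MOB gene at an unadjusted p under 0.05 in a contrast. MOB2, which binds NDR kinases, was higher with PTPN14-1 than with PTPN14-2 by 0.30 (SE 0.09, adjusted p = 0.0487), alone among 5 measured NDR partners and upstream kinases. Of 3 NDR substrates CBX5 was lower in that contrast by -0.30 (SE 0.09, limma adjusted p = 0.0414). Of all genes tested 5.87% passed with PTPN14-1, 1.35% with PTPN14-2 and 11.7% between these siRNAs. By siRNA contrast, 1381 to 3402 of all 12276 genes lay at an unadjusted limma p under 0.05. Single calls in lists this short are not a result about the lists.

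Downstream, WWTR1 was the 1 of 7 effector genes that passed, with PTPN14-1 (0.41, SE 0.11, limma adjusted p = 0.0394). Of 7 YAP target genes used as reporters, 6 rose with PTPN14-1, 1 with PTPN14-2 (CRIM1 at 0.49, SE 0.10, adjusted p = 0.0259) and 0 with the LATS siRNA. Of all genes tested 2.39, 0.448 and 0.0244% were higher in the same order. The reporters' medians were 0.65, 0.17 and 0.23, against 0.0021, -0.0023 and -0.003 over all genes. With the LATS siRNA 3 of the 7 reporters had an unadjusted limma p under 0.05, as did 1381 of all 12276 genes tested. This list was chosen with results of these libraries known, and AMOTL2 and AJUBA are in it and in the lists above.

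The genes most like each member were sought over the 12 libraries after each line's mean was subtracted, as a description of values that share libraries and controls. They were picked on the same libraries that give their siRNA changes, so those changes are no separate evidence. No background for r is given here. LATS1 was most like E2F5, a transcription factor of the E2F family (r = 0.97), then RBM12 (0.96) and TVP23B (0.95). E2F5 also fell with the LATS siRNA, by 1.05 on the log2 scale (SE 0.11, limma adjusted p = 0.00127), whereas RBM12 was at -0.08 and TVP23B at -0.61 (adjusted p = 0.665 and 0.0592). LATS2 was most like TATDN2 (r = 0.97), which rose with PTPN14-1 (0.43, SE 0.08, adjusted p = 0.0112). MOB1B was most like TMEM30A, a flippase subunit (r = 0.98), which fell with PTPN14-2 by 0.51 (log2 scale, SE 0.10, adjusted p = 0.0226). STK3 was most like SOCS5 (r = 0.98), STK38L like RASAL2 (0.97), MOB1A like TTC27 (0.97), STK38 like DCAF7 (0.95), SAV1 like COL4A1 (0.88) and STK4 like ACKR4 (0.87). Among the members themselves the closest were MOB1A and STK38L (r = 0.83) and LATS2 and STK38L (0.81), while LATS1 and LATS2 had r = 0.30 and MOB1A and MOB1B 0.33.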

How the data were processed

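The deposited table gives 1 FPKM value per gene line and library to 2 decimals. No label names the unit: it was read from the values, which are fractional and sum to 344334 to 396360. Per the submitters' processing notes, STAR 2.4.0g1 and GRCh38.p1 were used. Sources used here name no gene counter, annotation or scaling. Per the labels, the kit keeps strand. Of the symbols, 695 occur more than once and 29 entries are dates, none of them a member.

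The 12276 genes that passed FPKM 1 in 3 or more libraries were tested as log2(FPKM + 1) in limma 3.58.1 (R 4.3.3), using its trend and robust options (statmod 1.5.0). All 12 libraries entered 1 model of 4 siRNAs with cell line as a block, leaving 6 residual degrees of freedom. Benjamini-Hochberg adjustment covered every gene kept, at a threshold of 0.05. Cell line pairs the libraries because each line is 1 source of cells, and principal components 1 and 2 (57.0 and 38.1% of variance) split by line. Alternatives were a pseudocount of 0.1, no filter, quantile normalisation, plain moderation, no block, subsets of libraries, and each library or line left out; they were run for members and for counts of calls.

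Depth was the lowest read number whose whole-read steps matched single-exon genes nearly as often as the best one, so it is approximate. Positions, exon overlaps and 50-base windows come from GENCODE 29 (GRCh38). Every member is named. List genes could be named past the threshold, at most 4 per list and contrast by p, and likeness took the 3 genes with the highest Pearson r. Members and lists were chosen with earlier results of these data known.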

Additional observations from a re-analysis of the deposited data

How the results depend on the processing

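With no replicate block (cell line left out of the model) every siRNA contrast gave 0 calls by limma, LATS1 included (adjusted p = 1.00): 10 genes lay at an unadjusted p under 0.05 for LATS siRNA, 66 for PTPN14-1, 31 for PTPN14-2 and 119 between the PTPN14 siRNAs. With no filter, 17167 genes were tested and 3 passed with LATS siRNA, 355 with PTPN14-1 and 60 with PTPN14-2, and MOB1B no longer passed with PTPN14-2 (adjusted p = 0.128). With the 6 libraries compared alone, counts were 4, 103, 385 and 715, LATS2 had an adjusted p of 0.0587 and STK38L 0.124 with PTPN14-1. With both PTPN14 siRNAs as 1 level, 3 genes passed with LATS siRNA. Leaving out 1 library or line gave 0 to 20 calls for LATS siRNA (0 without CAKI-1, with 736 at an unadjusted p under 0.05), 40 (without HK2) to 830 for PTPN14-1, 14 (without CAKI-1) to 252 for PTPN14-2 and 319 (without HK2) to 1638 between them. The cause of these shifts was not tested.

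Of 1224 repeats of member values, 1149 kept direction and side of the threshold, 45 lost a call and 8 gained one. Sign turned in 22, all in values near 0 that did not pass: STK38L with LATS siRNA after quantile normalisation (-0.0029), and over left-out libraries or lines STK38L (-0.05 to 0.05), SAV1 (-0.02 to 0.14) and STK3 (-0.00029 to 0.05) with LATS siRNA, STK4 (-0.08 to 0.08) and MOB1A (-0.04 to 0.08) with PTPN14-2, STK3 (-0.14 to 0.09), STK4 (-0.20 to 0.03) and STK38 (-0.06 to 0.01) between the PTPN14 siRNAs, and STK38L (-0.04 to 0.04) in CAKI-1 against HK2. The siRNA calls were less stable than these totals. Of 21 alternatives MOB1B kept its call with PTPN14-2 in 9. With PTPN14-1 STK38L kept its call in 11 and LATS2 in 15. Between the PTPN14 siRNAs LATS2 kept it in 16 and MOB1B in 19. LATS1 kept its call with the LATS siRNA in 20 of 22. Depth limits LATS1 most, at about 21.0 to 38.6 reads per kilobase with the LATS siRNA.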
